A study of Mus musculus with 8 samples.

Results

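The genes described here are 10 immediate early genes of the mouse, the Fos family (Fos, Fosb, Fosl1, Fosl2), the Jun family (Jun, Junb, Jund), Atf3, Egr1 and Egr3, out of 21900 protein-coding genes in the RefSeq annotation. They were taken as a named list of genes that isolation of live muscle stem cells can induce. Every cluster, here a listed stretch of 1 bp or more, that overlapped one of them with 3000 bp on each side was counted. That gave 21 of the 27878 clusters in the 2 deposited lists. Cytosine methylation had been read by reduced representation bisulfite sequencing, an assay that samples DNA rich in CpG, in sorted skeletal muscle stem cells of Tg:Pax7-nGFP/+ mice, whose reporter gene marks cells that express the muscle stem cell factor Pax7. One group was fixed with 0.5% paraformaldehyde and the other was live, with 4 samples each and 1 animal per sample, and animals of both groups carried the reporter. The labels give no age or sex, the series title places the fixation in situ and the design text places it after isolation. A cluster in these lists says that the position was covered and what the authors' verdict on it was. It gives no methylation level, no value per animal and no read depth, so no value below measures methylation and no difference between fixed and live cells can be given an error.

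Fos and Jun proteins pair through leucine zippers to form AP-1, a transcription factor that binds DNA at genes of growth, stress and wound responses. Atf3 is a stress-induced protein of the same zipper class, and Egr1 and Egr3 are zinc finger transcription factors. All are known as immediate early genes or close relatives of them, which signalling can switch on without new protein synthesis, and in muscle stem cells Fos and Jun transcripts are known to appear when tissue is dissociated.

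Among the 7 of these genes with an entry in the RefSeq promoter table, a single listed cluster touched a promoter window, at Fosb. Fosl1, Egr1 and Egr3 have no entry there and were not looked at. The Fosb sequence is shown with the matching stretches of Fos and Jun, the founding AP-1 pair, where no cluster was listed. The sequences are RefSeq's, build GRCm38.p6, 5′ to 3′ on the strand of the gene, and stop before the annotated gene; capitals mark CpG, the dinucleotide in which mammalian methylation is mainly found.
Fosb, chr7:19310119-19310295, minus strand: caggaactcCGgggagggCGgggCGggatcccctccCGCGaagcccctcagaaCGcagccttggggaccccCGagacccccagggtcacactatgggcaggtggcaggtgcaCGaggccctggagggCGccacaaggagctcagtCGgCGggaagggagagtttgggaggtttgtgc
Fos, chr12:85473640-85473889, plus strand: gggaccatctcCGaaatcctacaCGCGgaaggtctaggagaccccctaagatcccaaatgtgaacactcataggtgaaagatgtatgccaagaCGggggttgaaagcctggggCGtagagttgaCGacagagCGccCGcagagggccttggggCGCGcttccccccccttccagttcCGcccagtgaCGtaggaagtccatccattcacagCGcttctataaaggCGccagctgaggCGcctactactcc
Jun, chr4:95052223-95052472, minus strand: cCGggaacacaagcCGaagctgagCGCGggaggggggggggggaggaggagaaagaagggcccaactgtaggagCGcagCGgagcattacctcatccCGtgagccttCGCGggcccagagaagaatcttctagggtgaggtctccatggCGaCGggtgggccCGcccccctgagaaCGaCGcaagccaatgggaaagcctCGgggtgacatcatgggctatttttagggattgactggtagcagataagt
The Fosb stretch of 177 bases held 11 CpG. The position listed there, chr7:19310285, is base 11 of the printed sequence and belongs to its first CpG, which lies inside the only CCGG of the stretch. CCGG is the sequence cut by MspI, the enzyme usual in this assay. The Fos stretch of 250 bases held 15 CpG and 0 CCGG, and the Jun stretch of 250 bases held 15 CpG and 1 CCGG.

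Of the 10 genes, 9 had at least 1 cluster in their window, against 47.9% of all protein-coding genes. The median was 2 clusters per gene among the 10, against 0 over all protein-coding genes. At least 3 clusters were listed at 4 of the 10 genes and at 11.8% of all protein-coding genes. The windows of the 10 genes held 1.61 clusters per 10 kb, against 0.190 per 10 kb over the windows of all protein-coding genes. The listed clusters covered 2.58% of the bases in the 10 windows, against 0.226% in all. The 10 genes are shorter, with a median of 4524 bp against 17146 bp, so a larger part of their windows lies near a gene end, and what part this has in the densities was not tested. Inside the genes the density was 1.70 per 10 kb for the 10 genes and 0.171 for all protein-coding genes. In the flanks of 3000 bp it was 1.5 for the 10 genes and 0.338 for all. Members were chosen with earlier results of these data known, so these shares describe the genes and carry no test.

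**Figure D1:**
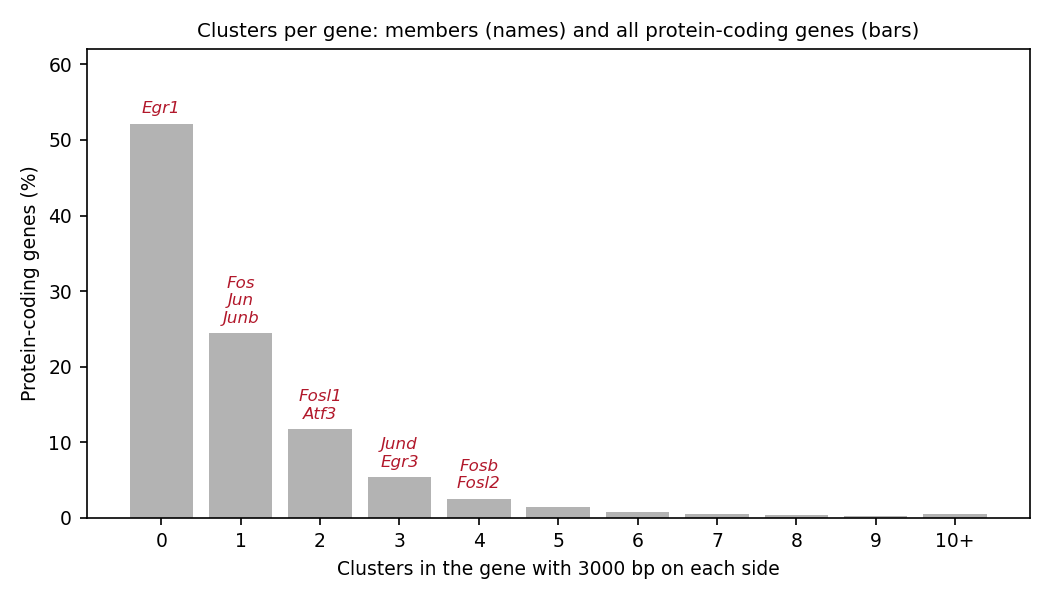
Number of listed clusters in each gene with 3000 bp on each side (horizontal axis) and the percentage of the 21900 protein-coding genes with that number (bars, vertical axis; 10+ stands for 10 or more), with the AP-1 and Egr genes named above the bar of their number. Egr1 stands with the 52.1% of genes that have 0 clusters, and Fosb and Fosl2 stand highest with 4.

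None of the 21 clusters was called different between fixed and live cells by the authors. The background is 0.0753% of clusters called, or 21 of 27878. At that share 0.0158 calls were expected among the 21 clusters of these genes, and a count of 0 allows a called share of up to 14.3% (3 of 21, counting error only). A list this short could thus hold 0 calls whether or not it resembles the rest of the genome. In the authors' deposited table, 0 of the 21 regions were assigned to any of these genes. Of the genes, 7 lay on a chromosome with a called region, and the nearest was 24.1 Mb from Fos, 59.5 Mb from Fosb, 74.0 Mb from Fosl2 and 30.0 Mb from Jun. For the other members on such chromosomes it was 39.6 Mb from Junb, 29.1 Mb from Jund and 45.2 Mb from Egr1. The chromosomes of Fosl1, Atf3 and Egr3 had 0 called regions.

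The Fos family held 11 clusters at 4 of 4 genes, 8 of them inside a gene. Fos (chromosome 12, 85473890 to 85477274), the founding member of the family, had 1 cluster of 173 bp, from 85476139 to 85476311. It lay inside the gene and began 2249 bp after the transcript start. The next clusters were 38477 bp away on one side and 122719 bp on the other, so Fos had a single listed cluster in a long stretch without others. Of protein-coding genes, 23.5% had more clusters than Fos.

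Fosb (chromosome 7, 19302696 to 19310118), which encodes a Fos protein with a known truncated form, had 4 clusters in 13423 bp of gene and flanks. Its 3 inner clusters, of 25, 120 and 70 bp, began at 19303778, 19304642 and 19304863, more than 5000 bp after the start and toward the 3′ end of the gene. The last of these lay 5113 to 5182 bp after the start given in the RefSeq promoter table, and the first 6243 to 6267 bp after it. The gaps between neighbours were 839, 101 and 5352 bp. The largest gap took up most of the gene, between the inner clusters and the single position printed above, which lay 167 bp outside the 5′ end of the gene and 240 bp before the start in the promoter table. Thus the listed clusters of Fosb lay at its promoter and again in its 3′ part.

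Fosl1 (chromosome 19, 5447698 to 5455938), which encodes Fra-1, had 2 clusters. The first, of 207 bp, lay inside the gene 778 to 984 bp from its lower coordinate. The second, of 165 bp (5456346 to 5456510), lay 408 bp past the higher coordinate and inside the neighbouring gene Ccdc85b, so it counts for both genes. The gap between the clusters was 7663 bp. The promoter table used for strand and start has no entry for Fosl1, Egr1 or Egr3, so their positions are given from the gene's outer coordinates.

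Fosl2 (chromosome 5, 32136472 to 32157840), which encodes Fra-2, is the longest of the genes at 21369 bp and had 4 clusters, of 62, 1, 266 and 50 bp. In the order of the gene, the first lay 1786 to 1847 bp before the start, and the single position (32136627) lay 155 bp after it. This was the shortest distance from a start to a cluster among the 7 genes in the promoter table. The others began 6859 and 13982 bp after the start. The gaps were 1940, 6703 and 6857 bp, so the listed clusters were spread over the front and middle of the gene. The next cluster past the gene lay 55639 bp beyond its end.

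The Jun family held 5 clusters at 3 of 3 genes, and 3 of the 5 were a single position, 1 at each gene. Jun (chromosome 4, 95049036 to 95052222), the founding Jun protein, had only the single position 95051202, inside the gene and 1020 bp after its start. The nearest neighbouring clusters lay 19602 bp and 448136 bp away. The list thus covers 1 of the 9187 bp of the Jun window, or 0.0109%, the lowest share among the genes with a cluster. Junb (chromosome 8, 84976909 to 84978748), which can oppose Jun at some genes, had the single position 84976445. It lay 464 bp beyond the 3′ end and 2303 bp after the start, so it covered no base of the gene itself, and it also lay within 3000 bp of Prdx2, a peroxiredoxin gene. Jund (chromosome 8, 70697739 to 70700616), the family member known for more constant expression, had 3 clusters. Those of 92 and 181 bp stood 120 bp apart, 2054 to 2446 bp before the start, and the single position 70699675 lay inside the gene, 1936 bp after the start. Its 3.38 clusters per 10 kb were the highest density among the 10 genes.

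Atf3 (chromosome 1, 191170296 to 191183333), which encodes a stress-induced transcription factor, had 2 clusters, and neither lay inside the 13038 bp of the gene. They were 251 and 405 bp long, longer than 91.9% and 97.2% of all clusters. They stood 207 bp apart, at 943 to 1193 bp and 1401 to 1805 bp before the start. All the listed clusters of Atf3 thus lay upstream of the gene, and the nearest cluster past its 3′ end was 9835 bp away.

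The Egr genes stood at opposite ends of the covered share. Egr3 (chromosome 14, 70077317 to 70082613) had 3 clusters, among them one of 1181 bp from 70078614 to 70079794, inside the gene. That cluster ranked 26 by length among all 27878 and was the only one over 1000 bp at these genes, a length reached by 0.183% of all clusters. It brought the covered share of the Egr3 window to 11.4%, the highest of the 10 genes. The other clusters were a single position (70077617), 300 bp inside the gene from its lower coordinate, and one of 111 bp that ended 1067 bp before that coordinate. Egr1 (chromosome 18, 34861207 to 34864956), a widely used marker of recent cell stimulation, had 0 clusters. The nearest listed clusters lay 66765 bp and 140738 bp away, so no verdict on fixation is given for Egr1 in the lists.

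**Figure D2:**
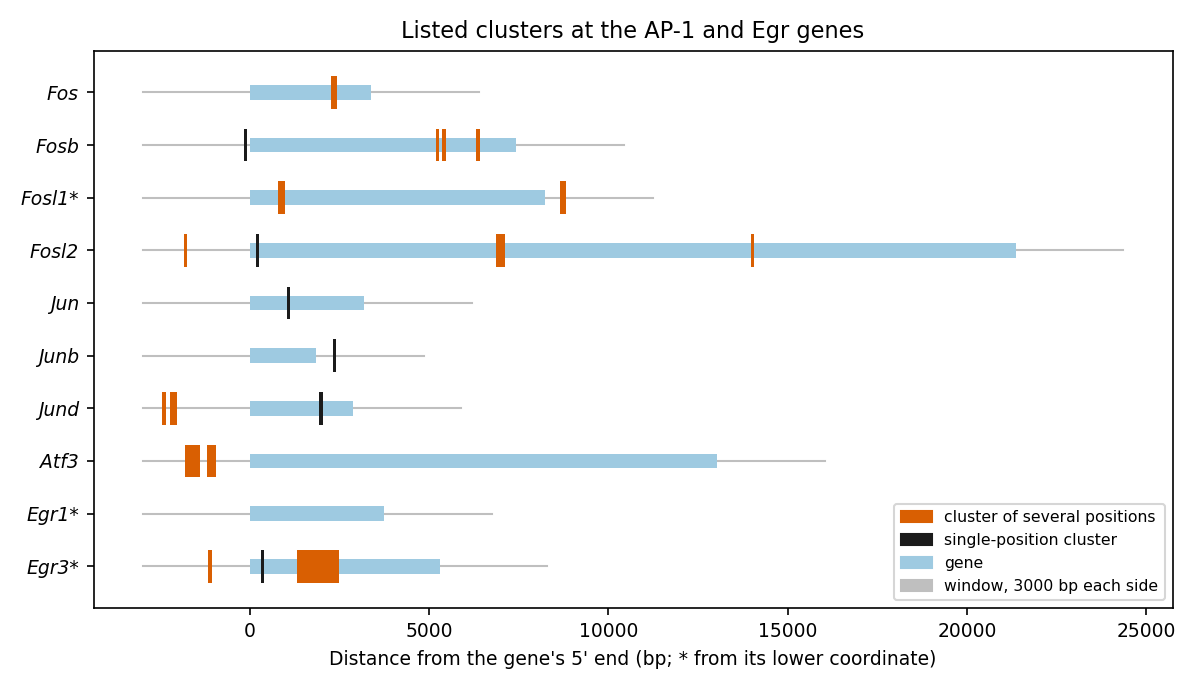
Position of the 21 listed clusters (upright marks) at the 10 genes (blue bars), with the 3000 bp windows as grey lines; the horizontal axis is the distance in bp from the 5′ end of the gene, or from its lower coordinate for the 3 genes with a star. Marks are drawn at least 90 bp wide, black for single positions; the Atf3 marks stand wholly upstream, the inner Fosb marks stand in its 3′ part and Egr1 has none.

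The clusters of these genes varied in length from 1 to 1181 bp. Their median was 92 bp (95% interval 1 to 181 bp, counting error only), against 89 bp for all clusters. The 21 clusters thus fix this median only loosely. Both ends of the range were filled, with 6 of 21 (28.6%) at a single position, against 8.87% of all clusters, and 5 of 21 (23.8%) over 200 bp, against 13.1% of all. Coverage near starts differs from coverage elsewhere, and of the 7801 clusters within 3000 bp of a protein-coding start 19.4% were a single position and 18.1% were over 200 bp. The 6 single positions were at Fosb, Fosl2, Jun, Junb, Jund and Egr3, and the 5 long clusters at Fosl1, Fosl2, Atf3 (both) and Egr3. With 21 clusters that share their libraries, these shares are a description.

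**Figure D3:**
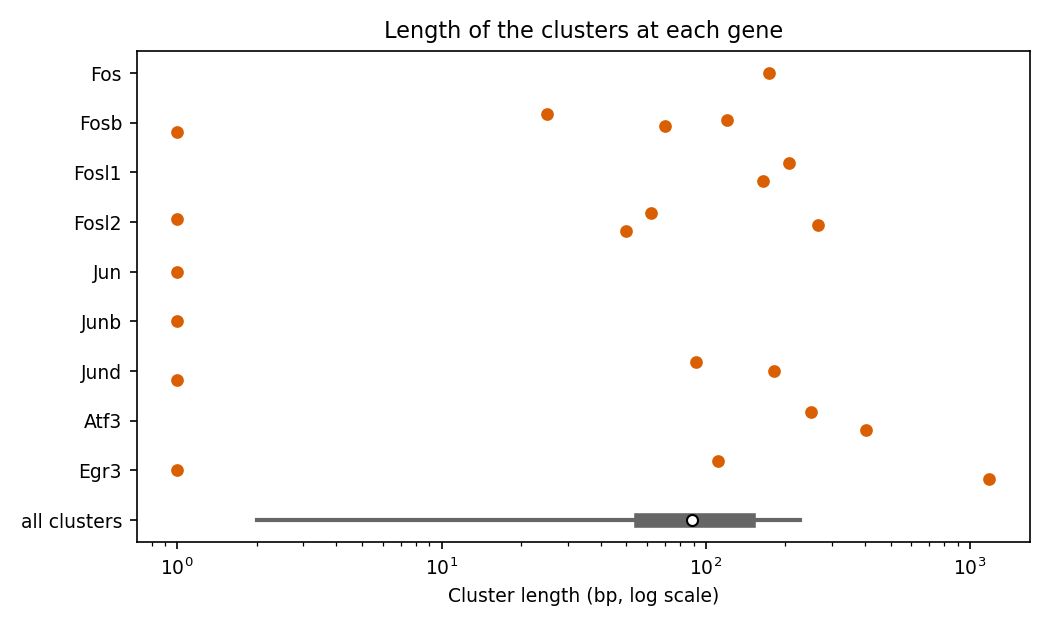
Length in bp (log scale) of each listed cluster at the 9 genes with a cluster (points) and, in the bottom row, of all 27878 clusters (circle, median of 89 bp; thick bar, 25th to 75th percentile, 57 to 145 bp; thin bar, 10th to 90th percentile, 2 to 227 bp). Jun and Junb have a point at 1 bp only, and the longest point is at Egr3.

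By the median over clusters, neighbours stood closer at these genes than over the whole lists, though not at every gene. Genes with several clusters weigh more in such a median, and both clusters of a close pair enter it. The genes were also chosen with earlier results of these data known. The distance from a cluster to its nearest neighbour had a median of 1940 bp for the 21 clusters and ranged from 101 to 38477 bp. Over all clusters its median was 10607 bp, and for clusters within 3000 bp of a protein-coding start it was 4219 bp. Pairs under 250 bp apart were found at Fosb (101 bp), Jund (120 bp) and Atf3 (207 bp). At the other end, the clusters of Fos and Jun had no neighbour closer than 19602 bp. Those of Junb and Fosl1 had none closer than 6186 bp, which is also above the median of 4219 bp near starts. A gap does not show unmethylated or methylated DNA, only that no cluster was listed there.

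Of the 21 clusters, 12 (57.1%) overlapped the body of the gene they were counted for, against 80.2% of the pairs of clusters and genes over all protein-coding genes. The gene bodies made up 54.0% of the window bases of the 10 genes and 88.9% of those of all protein-coding genes. For the 7 genes with a known strand, 9 of 16 clusters lay inside the gene, 6 before its 5′ end and 1 past its 3′ end. The clusters before the 5′ end were at Atf3, Jund, Fosl2 and Fosb. Beside the cluster in Ccdc85b, 5 clusters lay within 3000 bp of another gene, namely those shared with Prdx2 (Junb), Iqcn and the lncRNA gene Gm39191 (Jund), and the lncRNA genes Junos (Jun) and Gm26802 (Fosb). None of these 5 overlapped the other gene.

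Promoters were compared over the window of 250 bases before to 50 bases after each start in the promoter table, for 7 of the 10 genes. A cluster overlapped this window at 1 of the 7 genes (Fosb) and in 9.77% of the 21263 windows of protein-coding genes. Within 250 bp of a start a cluster was listed for 2 of the 7 genes and for 17.7% of protein-coding genes with an entry. Within 1000 bp this was so for 3 of the 7 and for 29.6% of all, and within 3000 bp for 7 of the 7 and for 34.1% of all. From the start to the nearest cluster there were 155 bp at Fosl2, 240 bp at Fosb, 943 bp at Atf3, 1020 bp at Jun, 1936 bp at Jund, 2249 bp at Fos and 2303 bp at Junb. The 7 genes thus all had a listed cluster within the windows set by the rule, but for 4 of them the nearest lay more than 1000 bp from the start.

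The promoter windows of 6 of the 7 genes held more CpG than the median window, which had 13. Fosl2 had 32, Atf3 27, Fosb 25, Junb 21, Fos 20 and Jun 15, while Jund had 3. CCGG occurred in 6 of the 7 windows and in 62.2% of all windows (one strand read, since CCGG is its own complement). Fosb had 6 CCGG, Fosl2 had 4, Atf3 had 2, Fos, Jun and Junb had 1 each and Jund had 0. The windows with most CCGG thus belonged to the 2 genes with a cluster nearest the start, though the Fosl2 position lay outside its window. The order did not hold throughout, since Jund, with 0 CCGG, had a nearer cluster than Fos and Junb. Over all protein-coding genes, 15.7% of the windows with CCGG were overlapped by a cluster, against 0.0373% of those without (3 of 8042). Among the 7 genes, windows with CCGG but no cluster were found at Fos, Fosl2, Jun, Junb and Atf3.

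**Figure D4:**
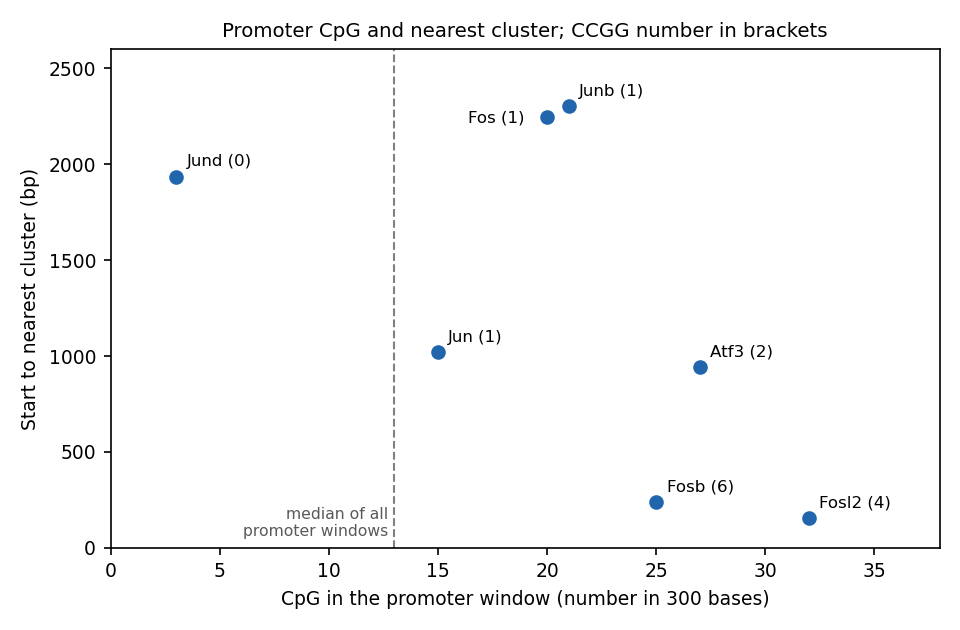
CpG in the promoter window of 300 bases (horizontal axis, number) and distance from the start to the nearest listed cluster (vertical axis, bp) for the 7 genes in the promoter table, with the number of CCGG in brackets. Fosb and Fosl2, with 6 and 4 CCGG, have a cluster within 250 bp, and the dashed line marks the median of 13 CpG over all promoter windows.

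Letters of the binding sites that these factors are known for were searched in the same windows on both strands. TGACTCA, the AP-1 site, occurred in 0 of the 7 windows and in 4.66% of all. TGACGTCA, the cAMP response element that also binds Atf and Jun pairs, occurred in 0 of the 7 and in 2.23% of all, and the Egr site GCGTGGGCG in 0 of the 7 and in 0.828% of all. Absence says only that these exact letters are not in the window.

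Related genes were covered too and had a median of 3 clusters per gene for the Egr relatives and 1 to 1.5 for the other lists, against 2 for the 10 genes. Over 4 further lists, 49 of 68 genes had a cluster in their window, with 107 clusters and 0 called. The share of genes with a cluster was 80.0% for the Egr relatives and 72.2% for the other zipper genes. It was 72.4% for the other immediate early genes and 68.8% for the factors upstream, against 47.9% of all protein-coding genes. Of the other Egr genes and their partners, 4 of 5 were covered by 17 clusters, with 7 at Wt1, which encodes a zinc finger protein of related structure, 4 at the corepressor gene Nab2 and 3 each at Egr2 and Egr4. Of the other zipper genes related to AP-1, 13 of 18 were covered by 23 clusters, among them 3 each at Jdp2, which encodes a Jun dimerisation partner, and Mafg. In this list 7 of 23 clusters (30.4%) were a single position, against 2 of 17 (11.8%) at the Egr genes and their partners.

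Of the other immediate early genes, 21 of 29 were covered by 44 clusters, with 6 at Nr4a2 and 4 at Nr4a1, which encode orphan nuclear receptors, and 3 at Dusp5, which encodes a MAP kinase phosphatase and was named by symbol order among the genes with 3. A single position made up 6 of these 44 clusters (13.6%), and 4 of 23 (17.4%) at the factors upstream, which follow. Of the factors upstream, 11 of 16 were covered by 23 clusters, with 4 at Srf, the serum response factor that acts on the promoters of Fos and Egr1, and 3 each at Mkl2 (RefSeq name Mrtfb), its coactivator, and Rps6ka3, a kinase gene. A count of 0 called clusters allows a called share of up to 17.6%, 13.0%, 6.82% and 13.0% in these lists, in the order given, so none of them can be told apart from the background of 0.0753%.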

How the data were processed

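Reduced representation bisulfite sequencing had been done on 8 samples, 4 fixed and 4 live. Per the submitters' processing notes, the tools were Bismark 0.14.4, Trim Galore 0.4 and ChIPseeker 1.12.1, with build mm10. The calling of clusters, with its coverage filter and threshold, is a step not given in the sources used here. Both deposited lists hold positions of 21 significant and 27857 not significant clusters, pooled over samples, with a score column that is 0 throughout and was not used. The p-values and the signed difference, a score in the authors' deposited table, were not used; only its assigned genes were read. Read depth is unknown.

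Clusters overlapping a gene with 3000 bp on each side by at least 1 bp were counted with Python 3.11.15, pandas 2.3.3, numpy 2.4.6 and matplotlib 3.10.9; the interval of the median length used scipy 1.17.1. Gene bounds came from RefSeq GRCm38.p6, the assembly that mm10 names, and strand, starts and promoter letters from a RefSeq promoter table of that build with 7 of the 10 genes. Windows of neighbouring genes can overlap, so sums over genes count some clusters more than once. The counting was checked against a direct count on simulated intervals. No test was run, since no file gives a value per sample. The genes and lists were chosen with earlier results of these data known. Named were all 10 genes, genes sharing their clusters, and the 3 genes with most clusters in each further list, with ties at the third place settled by the alphabetical order of the symbols; 1 of these genes is not reported here. Alternatives changed the window, the overlap, the minimum length and the merging of neighbours.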

Additional observations from a re-analysis of the deposited data

How the results depend on the processing

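With windows of 1000, 5000 and 10000 bp the count was 16, 21 and 28 clusters, against 21 as reported. With the gene bodies alone it was 12, since the clusters beyond the gene ends, both of those at Atf3 and the one at Junb included, no longer count. The count was 14 for clusters of at least 50 bp and 19 with neighbours at most 200 bp apart merged. Between 7 and 9 of the genes had a cluster in the settings in which they were counted, the merging not among them, and Jun lost its only cluster, like Junb, with the minimum length of 50 bp. The covered share was 1.40% with the window of 10000 bp, against 2.58%, since a smaller share of the added flanks was covered than of the windows of 3000 bp. The median length, recomputed with the 3 windows and with the merging only, was between 60 and 111 bp, against 92 bp. With the windows of 1000, 5000 and 10000 bp, 0 clusters were called. No paired analysis was possible because no file used here gives a value for each animal, which leaving out a replicate needs too. Depth per cluster is unknown, which limits what a verdict of not significant shows.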
